A study of Rattus norvegicus with 6 samples.

Results

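The very wide intervals of an m6A peak list from fetal rat penile tissue, described here, were more often the 5'-most than the 3'-most listed interval of genes with several. There were 774 of them among 29268 distinct intervals (2.64%), in 738 of 13146 genes (5.61%). They were chosen by width and assignment: each had a distance from start to end above 10 kb that was not a whole multiple of 25 bp (a broken grid), and each was assigned to exactly 1 gene. Width and the break in the grid are therefore properties of the choice and not findings, and the same holds for anything computed from these values alone.

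N6-methyladenosine (m6A) is a methyl mark that a writer complex built around METTL3 and METTL14 places on nascent and mature messenger RNA, and that reader and eraser proteins bind or remove. In MeRIP-seq, an antibody enriches RNA fragments that carry the mark, and stretches with more immunoprecipitated than input reads are listed as peaks. In mammalian messenger RNA the mark is known to be dense near stop codons, in 3' untranslated regions and in long internal exons. A peak laid out along a spliced transcript can run over an exon junction, and when its start and end are then written as genome positions the distance between them includes the intron. Mammalian genes often carry their longest intron near the 5' end. These statements are background and were not measured here.

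The study has 3 control and 3 case samples of penile tissue from fetal Sprague-Dawley rats. Dams were gavaged with corn oil (control) or with di-(2-ethylhexyl) phthalate (DEHP), a plasticizer that lowers androgen action in the male fetus, from gestational day 12 to 19. Fetuses were taken by cesarean section at GD19.5 (GD, gestational day). Per the design text, tissue came from normal males and from males with hypospadias, in which the urethra opens on the underside of the penis; the titles say only control and case, and do not state whether fetuses were pooled. The list covers the series as a whole and holds 0 columns of values per sample, so no interval can be given a level in any sample, and no difference between case and control was measured. Whether an interval was found in case, control or both groups is likewise unknown. Depth is unknown. The tissue could not be checked against marker genes, because the 13146 Ensembl gene IDs are not paired with symbols and the RefSeq table used here named 0 of them.

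The choice narrowed the list in 3 steps. Of 888 distinct intervals wider than 10 kb, 854 (96.2%) broke the grid. Of these 854, 80 (9.37%) were assigned to several genes and are left out, against 8.59% of all distinct intervals. Genes on both strands shared 63 of the 80 (78.8%). Among single-gene intervals above 10 kb, 31 of 805 (3.85%) had widths that were whole multiples of 25 bp, where widths spread evenly over 25 remainders would give 4%. The remainders of the 774 members took all 24 possible values, each with 22 to 41 members and a mean of 32.2. The grid thus separated few of the very wide intervals from the rest.

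Widths ran from 10007 to 424362 bp, with a median of 19.8 kb and quartiles of 13.7 and 34.1 kb. Just inside the threshold lay widths of 10007, 10024 and 10032 bp, and just outside it 9918, 9948 and 9976 bp, so no gap in the values sets the members apart. Widths up to 20 kb belonged to 393 members (50.8%), those over 20 and up to 50 kb to 266 (34.4%), those over 50 and up to 100 kb to 86 (11.1%), and 29 (3.75%) were wider than 100 kb. Together the members cover 25.2 Mb of genomic distance, which is 53.3% of the 47.2 Mb that all distinct intervals cover, although they are 2.64% of the intervals. The rule itself favours this imbalance. The distances are genomic and should not be taken as lengths of methylated RNA, since introns were not assigned.

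**Figure D1:**
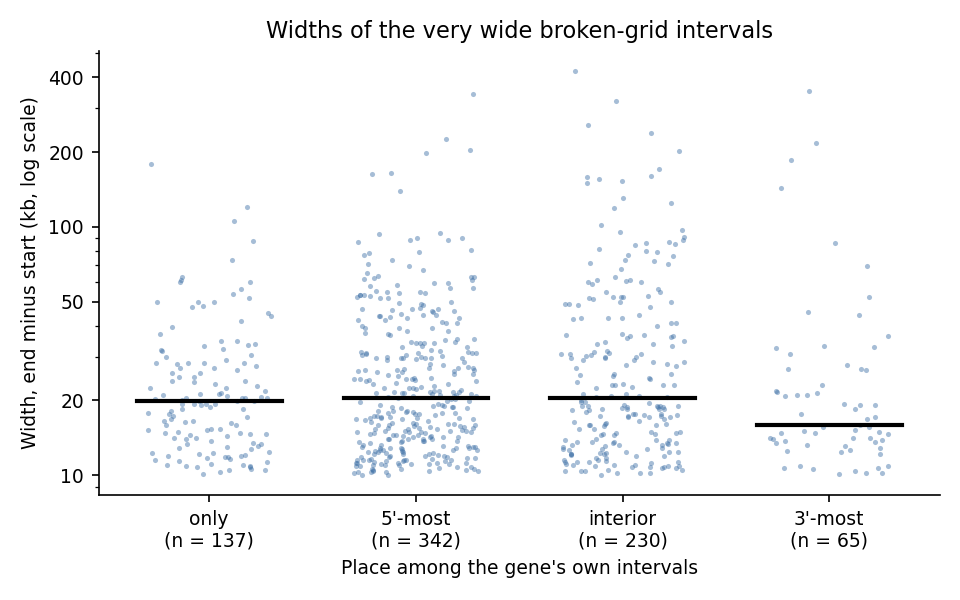
Width of each member in kb on a log axis, by its place among the intervals of its own gene along the gene's strand. Each point is 1 interval and the bar is the median. Medians were 19.8 kb for the only interval of a gene, 20.5 kb for the 5'-most, 20.4 kb for interior and 16.0 kb for the 3'-most intervals.

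The widest member, 424362 bp, lay on chromosome 4 from 90963044 to 91387405, in positions of the file counted from 1, on the plus strand of ENSRNOG00000029321. It was the middle of 3 intervals of that gene. Its 3' neighbour began 150 bp away on the same grid, while its 5' neighbour was 668914 bp away and off the grid. The widest 3'-most member, 350939 bp on the minus strand of chromosome 19 from 43360517 to 43711455, took up 99.8% of the stretch between the outermost ends of its gene's 3 intervals and had its 5' neighbour 300 bp away, on one grid with it. On chromosome 12 the widest 5'-most member ran over 341993 bp, from 13021425 to 13363417 on the minus strand, and its only companion lay 639951 bp further 3'. The widest member that was alone in its gene measured 179796 bp, on the minus strand of chromosome 1 from 249414091 to 249593886.

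Of the other members among the 10 widest, the first was an interval of 321176 bp on the plus strand of chromosome 7, from 58943835 to 59265010, in position 3 of the 4 intervals of its gene. It had a 5' neighbour 75 bp away on its grid and a 3' neighbour 151540 bp away. On chromosome 3 an interval of 255960 bp, from 158406223 to 158662182 on the plus strand, had neighbours on both sides, 25 bp and 300 bp away, each on one grid with the edge it faced. An interval of 237743 bp on the minus strand of chromosome 7, from 84416323 to 84654065, took up 85.3% of its gene's stretch. That of 225403 bp on chromosome 16, from 43558075 to 43783477 on the plus strand, opened a gene with 3 members that is described further on. One of 217887 bp, on the minus strand of chromosome 13 from 80369931 to 80587817, was the 3'-most of 2. The remaining pair measured 204837 bp on chromosome 15, from 8700859 to 8905695, and 202871 bp on chromosome 6, from 13272867 to 13475737, both on the plus strand. Among these 10, 5 were interior, 3 were 5'-most and 2 were 3'-most.

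Within their genes, the members lay toward the 5' end. Of the 774, 137 (17.7%) were the only interval of their gene, against 16.4% of the other single-gene intervals. In genes with 2 or more intervals, 342 of 637 members (53.7%, 95% Wilson interval 49.8 to 57.5) were 5'-most, 230 (36.1%) were interior and 65 (10.2%, 8.09 to 12.8) were 3'-most. The other single-gene intervals were spread nearly evenly between both ends, with 29.7% 5'-most and 30.1% 3'-most. The Wilson intervals cover counting error only. Intervals of 1 gene and of 1 list are not replicates, so no test was run, and the spread between animals is unknown.

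**Figure D2:**
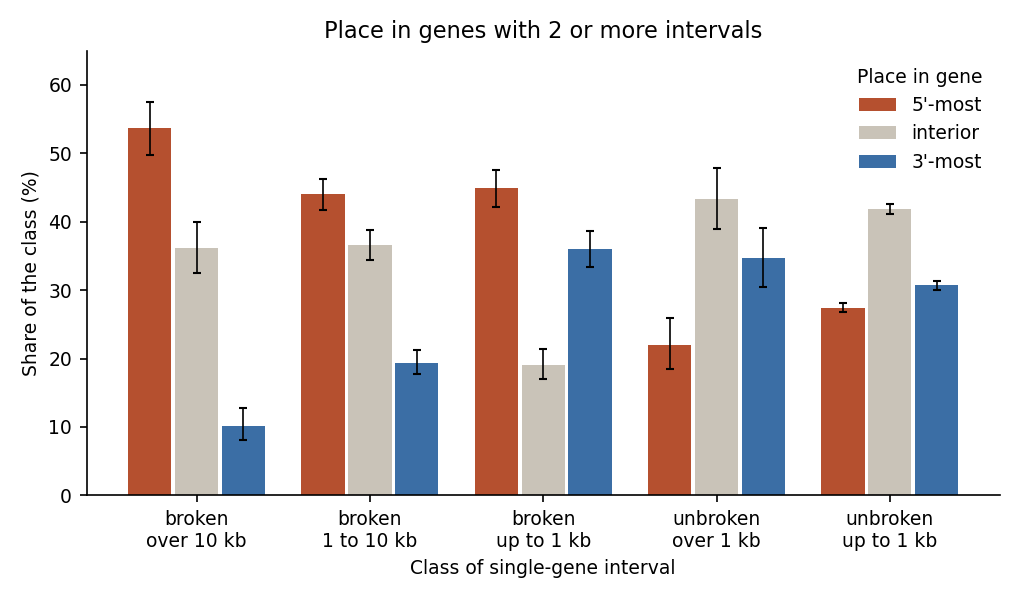
Share of each class of single-gene interval, in percent, that is the 5'-most, an interior or the 3'-most interval of its gene, in genes with 2 or more intervals; error bars are 95% Wilson intervals. The broken intervals over 10 kb stand at 53.7% 5'-most and 10.2% 3'-most, and the unbroken intervals up to 1 kb at 27.4% and 30.7%.

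The nearest classes differed in degree. Broken intervals over 1 and up to 10 kb were 5'-most in 44.0% (41.7 to 46.3) and 3'-most in 19.4% (17.7 to 21.3) of 1855. Those up to 1 kb were 5'-most in 44.9% and 3'-most in 36.0% of 1272. Unbroken intervals over 1 kb went the other way, with 22.0% 5'-most and 34.7% 3'-most of 473. Of the wide whole-step intervals that the rule leaves out, 16 of 25 (64.0%, 44.5 to 79.8) were 5'-most and 2 were 3'-most.

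Genes with a fixed number of intervals were also compared. In those with 2, the member was the 5' one in 152 of 189 cases (80.4%, 74.2 to 85.5), against 69.3% for broken intervals over 1 and up to 10 kb and 49.4% for all other single-gene intervals. Genes with 3 had the member in first place in 95 of 142 cases (66.9%), in the second in 38 and in the third in 9 (6.34%). In such genes first place held 44.1% of broken intervals over 1 and up to 10 kb and 32.8% of all other single-gene intervals. With 4 intervals the counts from the 5' end were 42, 28, 24 and 4, and with 5 they were 20, 20, 9, 12 and 5. With 4, first place held 42.9% (33.5 to 52.7) of members, 37.4% of broken intervals over 1 and up to 10 kb and 35.6% of those up to 1 kb. With 5, the shares were 30.3% (20.6 to 42.2), 25.1% and 31.2%. The Wilson intervals of these classes overlap in both sets, so first place does not set the members apart from other broken intervals there. The 3'-most place held the fewest members in each of these 4 sets of genes. The same was true of broken intervals over 1 and up to 10 kb, so this is not particular to the members. That class had 30.7%, 19.3%, 11.2% and 14.0% in last place with 2, 3, 4 and 5 intervals, and the members 19.6%, 6.34%, 4.08% and 7.58%.

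Counted by genes, the 5'-most interval was a member in 342 of the 7947 genes with 2 or more intervals (4.30%) and the 3'-most in 65 (0.818%). Both ends were members in 5 genes. The 637 members in these genes had 752 intervals of their own genes on the 5' side and 1371 on the 3' side, a mean of 1.18 and 2.15 and a median of 0 and 2 per member. These counts follow in part from the place counts above and were not computed for other classes. Interior members also lay nearer the 5' end in bp. Of the 230, 157 had more of their gene's stretch on the 3' side and 73 more on the 5' side, and the median was 32.6 kb on the 3' side and 3.24 kb on the 5' side. This split was not computed for interior intervals of other classes, so it is not shown to be particular to the members. By width, 5'-most members made up 52.2% of those up to 20 kb, 59.9% over 20 and up to 50 kb and 51.9% over 50 and up to 100 kb. Above 100 kb, 7 of 26 (26.9%) were 5'-most and 15 were interior.

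The side of the gap differed as well. Next to 295 members with an interval on the 5' side, the median gap was 275 bp (quartiles 91 and 3922 bp), and 199 (67.5%) had that neighbour within 1000 bp. On the 3' side of 572 members the median gap was 14.0 kb (quartiles 1.79 and 40.3 kb), 130 (22.7%) had a neighbour within 1000 bp, and 325 (56.8%) were followed by a gap of more than 10 kb. Some members touched the next interval with a gap of 0 bp, 16 on the 5' side and 5 on the 3' side. Broken intervals over 1 and up to 10 kb had medians of 885 bp and 3.87 kb, and the unbroken intervals up to 1 kb had 400 bp and 325 bp. The 2 sides of the members come from different sets, because a 5'-most member has no 5' neighbour. In the 230 interior members, which have both, the 5' gap was the smaller one in 169 and the 3' gap in 60, with 1 tie. The same count was not made for interior intervals of other classes, so whether they lean this way is not known.

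**Figure D3:**
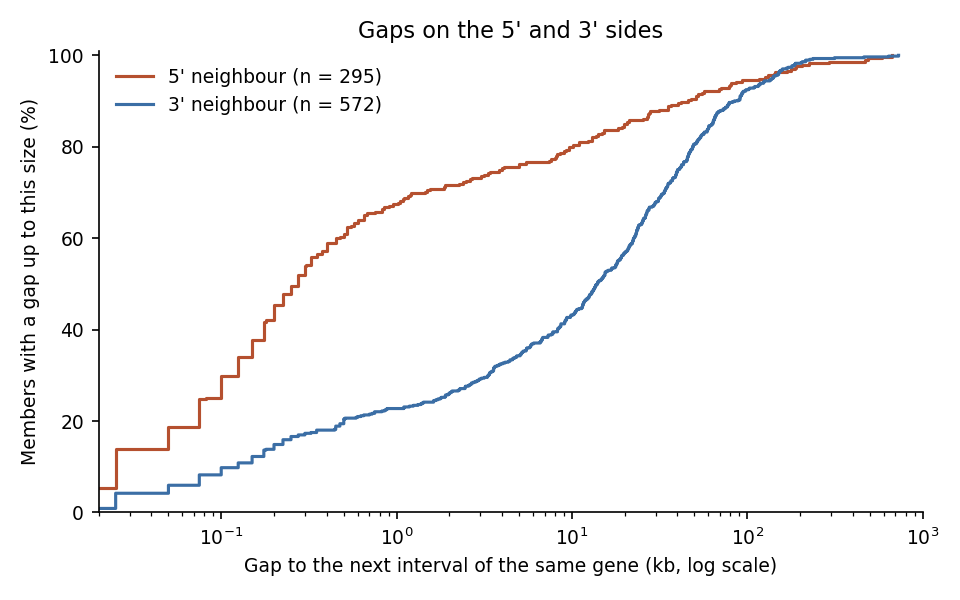
Share of members, in percent, whose gap to the next interval of the same gene is at most the value on the log axis in kb, for the 5' and the 3' side. The 16 and 5 gaps of 0 bp lie to the left of the axis and are counted. The 5' curve reaches 67.5% at 1 kb, where the 3' curve stands at 22.7%.

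A member's own start and end never share a 25 bp grid, by the rule, but each edge could be set against the interval next to it, which the rule did not use. With the 5' neighbour within 1000 bp, the gap was a whole multiple of 25 bp in 193 of 199 members (97.0%, 93.6 to 98.6). On the 3' side this held in 122 of 130 (93.8%, 88.3 to 96.8). Where neighbours lay more than 5 kb away, 19 of 447 edges (4.25%, 2.74 to 6.54) faced such a gap, close to the 4% that 25 even phases give. Between 1 and 5 kb it was 6 of 25 on the 5' side and 14 of 66 on the 3' side. The pooled count is of edges, so a gap between adjacent members enters it from both sides. Members with a neighbour within 1000 bp on both sides numbered 35, and in 32 of them both edges matched. In these 32 the facing edges of the 2 adjacent intervals could not be on one grid with each other. The rule on the member's width fixes this, so it is no result. In the other 3, only 1 edge matched.

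**Figure D4:**
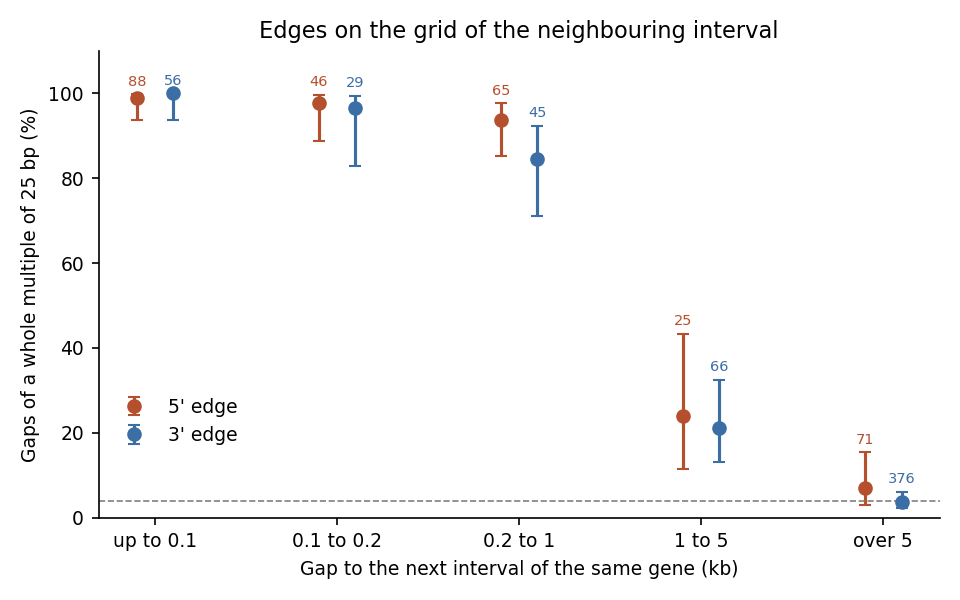
Share of gaps, in percent, that are a whole multiple of 25 bp, by the size of the gap in kb, for the 5' and 3' edges of the members. Bars are 95% Wilson intervals, the numbers above the points count the members, and the dashed line marks 4%; up to 0.2 kb every point is above 96%, and beyond 5 kb the points are at 7.04% and 3.72%.

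Edges matched close neighbours throughout the list. With both edges pooled and neighbours within 1000 bp, the share was 95.7% (93.0 to 97.4, n = 329 edges) for the members and 96.0% (95.7 to 96.3, n = 18665) for all other single-gene intervals. By class it was 97.2% for unbroken intervals over 1 kb, 96.9% for those up to 1 kb, 89.1% (87.0 to 90.9, n = 997) for broken intervals over 1 and up to 10 kb and 84.8% (82.0 to 87.3, n = 686) for those up to 1 kb. Beyond 5 kb it was 4.04% for all other single-gene intervals. Matching is thus not particular to the members, though their share was above those of the other broken classes. The gaps behind these shares differ in size between the classes. A gap between intervals of the same set also enters the pooled shares from both sides, so their Wilson intervals are too narrow. For gaps over 200 and up to 1000 bp, the 5' edge matched in 93.8% of members. It matched in 79.6% of broken intervals over 1 and up to 10 kb and in 75.8% of those up to 1 kb. For the 3' edge the shares were 84.4%, 66.1% and 61.6%. The unbroken classes stood between 90.5% and 95.5%. What underlies this was not tested. The 5' neighbour of a member had a whole-step width in 238 of 295 cases (80.7%, 75.8 to 84.8), against 81.4% for the other single-gene intervals. For the 3' neighbour it was 469 of 572 (82.0%, 78.6 to 84.9), against 86.5%. Exon and intron positions of the files' build were not used here, so whether a grid changes at an exon junction was not tested.

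Genes with a member held more intervals than the rest, with a median of 3 and a mean of 3.60 (SD 3.16, n = 738 genes), against 2 and 2.36 (SD 1.86, n = 12408 genes). A single interval was listed for 18.6% of them, against 40.8%. A gene with more intervals has more chances to hold a member, so the choice itself favours this direction, and nothing is read from it. In genes with 2 or more intervals the distance between the outermost ends had a median of 60.6 kb over the 637 members. A member took up a median of 42.6% (quartiles 26.0 and 68.2) of this distance, and more than 50% in 271 of 637 cases. This share rests on the width that chose the members and is given as a description. Of the other 1885 intervals in these genes, 1658 (88.0%, 86.4 to 89.4) had whole-step widths. In genes with 2 or more intervals and no member, 83.1% of the intervals did. The members, all broken by the rule, are left out of the first share, while the second keeps every broken interval. The choice therefore favours this direction too, and nothing is read from it.

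Most genes held 1 member. There were 705 such genes, 30 with 2 members and 3 with 3. In the 33 genes with several, 20 of 36 pairs of consecutive members had no other interval between them, and 11 pairs lay within 1000 bp of each other, 10 of them with a gap of a whole multiple of 25 bp. ENSRNOG00000022395, on the plus strand of chromosome 10, holds a chain with whole-step gaps. Positions 2 to 4 of its 6 intervals are members of 18517, 25629 and 11197 bp, from 102870521 to 102945613. The gaps between them, 25 and 19725 bp, are both whole multiples of 25 bp, while the members' own widths were 17, 4 and 22 bp beyond whole steps. Beyond 5 kb, whole multiples were near the even share (4.25% against 4%), so the gap of 19725 bp does not show a shared grid. ENSRNOG00000007657, on the plus strand of chromosome 5, ended in 3 members of 17154, 19777 and 14029 bp, from 76695618 to 76752228, and neither gap between them, 180 and 5471 bp, was a whole multiple. In ENSRNOG00000012802, on the plus strand of chromosome 16, the member of 225403 bp was followed after 141220 bp by one of 18251 bp, and another of 10796 bp held position 4 of the 5 intervals. These 3 genes thus differ in where their members lie, in the middle, at the 3' end and from the 5' end on.

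No other interval lay inside a member, whether of the same gene or another: 0 intervals overlapped any of the 774. Since 0 of the 29268 distinct intervals overlapped another, this is no result about the members. Windows of the member's own width on either side were described too. On the 5' side 55.3% of these windows held no interval, 32.2% held one or more of the same gene and 17.1% one or more not assigned to it. On the 3' side the shares were 48.3%, 48.7% and 9.43%. All 774 members are counted on both sides. The 342 5'-most members and the 137 that were alone in their gene have no interval of the same gene on the 5' side by definition. On the 3' side this holds for the 65 3'-most members and the same 137. The contrast between the sides thus partly repeats the place counts, and other classes were not described in this way.

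Members were found on all 20 autosomes and X, and on neither Y nor the mitochondrial genome, which have 10 and 11 single-gene intervals. Genes on the plus strand carried 395 (51.0%), against 50.4% of the other single-gene intervals. Chromosome 2 had the most members, 79 (10.2%), followed by chromosome 1 with 73 (9.43%) and by chromosomes 3 and 4 with 58 each. As a share of its single-gene intervals, chromosome 2 led with 4.40% (3.54 to 5.45), then chromosome 18 with 4.08% (2.94 to 5.65) and chromosome 4 with 3.87% (3.01 to 4.98). Chromosome 1 stood at 2.15% (1.71 to 2.69) and chromosome 12 at 2.01% (1.27 to 3.15). On X there were 12 members, 1.63% (0.936 to 2.83), below each autosome. The share over all single-gene intervals was 2.89%, and the 20 autosomes had a mean of 2.98% (SD 0.673).

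**Figure D5:**
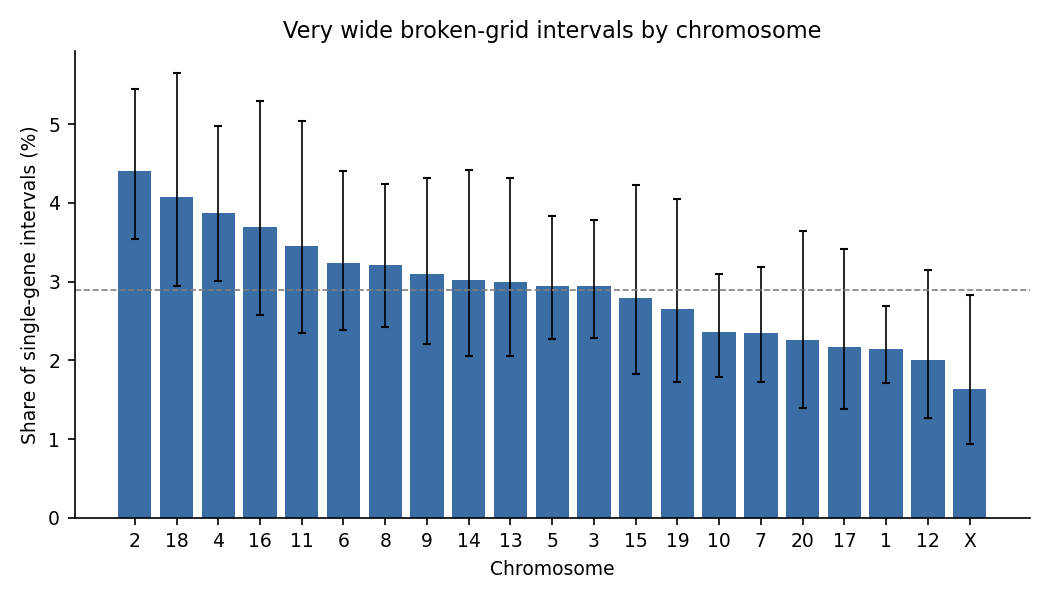
Members as a percentage of the single-gene intervals of each chromosome, in descending order, with 95% Wilson intervals and a dashed line at the share over these chromosomes. Chromosome 2 at 4.40% and chromosome 1 at 2.15% have intervals that leave out the line, as do chromosome 4 at 3.87%, chromosome 18 at 4.08% and X at 1.63%, while neighbouring bars overlap widely.

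Taken among broken single-gene intervals alone, members made up 24.3% on chromosome 18, 22.0% on chromosome 2, 11.0% on chromosome 20 and 10.3% on X. Chromosomes differ in how densely genes are listed, with 3.56 listed genes per Mb on chromosome 2, 9.25 on chromosome 12, 10.5 on chromosome 10 and 2.74 on X, and the part of this in the shares was not tested. Median widths of members ran from 15.7 kb on chromosome 9 to 25.1 kb on chromosome 12. A member lay in 605 windows of 1 Mb, and 466 of them held only 1. Other classes were not counted in this way, so neither scatter nor clustering is read from these windows. The fullest held 4 each, on chromosome 2 from 92 to 93 Mb, chromosome 3 from 152 to 153 Mb, chromosome 4 from 63 to 64 Mb, chromosome 5 from 145 to 146 Mb and chromosome 10 from 102 to 103 Mb, the last including the chain of 3 described above.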

How the data were processed

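HISAT2 and the build Rnor_6.0 are named in the submitters' processing notes. For the peak caller, its threshold, the annotation and any pooling, nothing is stated in the labels or headers. The deposited table has 5 columns per the file headers: chromosome, start, end, gene ID and gene strand. Start and end were read as positions in bp counting from 0 and are printed counting from 1. The file names no build. Its highest ends, such as 260249035 on chromosome 1 and 249048070 on chromosome 2, fall well short of the Rnor_6.0 chromosome ends as generally known and near those of mRatBN7.2, so positions should be checked before use. No genome of either build was used, and no sequence is printed.

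Place was the rank of an interval among all intervals of its gene along the gene strand. Gaps run between facing edges of consecutive intervals of a gene, and an edge matched if the gap was a multiple of 25 bp. Shares have 95% Wilson intervals. Regions named are the 10 widest, the 3 on each side of the threshold, the widest of each place and the members of the genes with the most; the rule allowed 2 such genes, but 3 tied and all are given. No chromosome had 1 to 3 members, for which the rule also allowed. Members and rules were chosen with earlier results of these data known. Functions were tested on simulated data. Python 3.11.15, numpy 2.4.6, pandas 2.3.3, scipy 1.17.1 and matplotlib 3.10.9 were used.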

Additional observations from a re-analysis of the deposited data

How the results depend on the processing

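Of 22 recomputed values, 15 stayed within the main Wilson interval (for the median width, its order-statistic interval) or, for the number of members, within 1.5 times it. The number of members, 774, was 1380 with widths above 5 kb and 381 above 20 kb, by construction. The 5'-most share, 53.7%, was 59.5% after joining intervals of a gene up to 100 bp apart and 52.0% to 55.2% under the other 5 alternatives. The 3'-most share, 10.2%, was 13.3% with widths above 5 kb, 7.94% above 20 kb and 13.3% with intervals of several genes kept. In the last setting an interval counted once for each of its genes, and 63 of the 80 added intervals lay over genes on both strands. The cause of these shifts was not tested. The 3'-most share stayed below the 5'-most share under all 6 alternatives. The share of matching edges, 95.7%, was 98.6% for neighbours within 200 bp. No paired analysis was possible because no sample has a column of its own; the comparison of case with control, leaving out replicates and the other alternatives for it were not run for the same reason. Reads behind an interval are unknown, so limits set by depth could not be assessed.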
